A study of Drosophila melanogaster with 6 samples.

Results

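The 10 intestinal progenitor genes described here are esg, Dl, Sox21a, Sox100B, klu, hdc, zfh2, Su(H), mira and N, out of 17411 genes counted in Drosophila melanogaster intestines. They were chosen by gene symbol as genes known to mark or steer the stem cells and enteroblasts of the fly midgut. RNA was sequenced after polyA selection in 6 libraries. In 3 libraries (replicates A, B and D) the genotype was Mex-Gal4>9G8RNAi, an RNAi construct against the SR-type splicing factor 9G8, which the gene x16 encodes. The other libraries, control replicates A, B and D, were Mex-Gal4>GFPdsRNA, a double-stranded RNA against GFP, which the fly genome does not encode. Both groups carried the driver Mex-Gal4, which is active in enterocytes, so the construct was not aimed at the progenitors themselves. Values of a group are listed in the order A, B, D throughout. The sources used here do not state the sex and age of the flies or the number of guts per library. Nothing says that replicates came from separate cohorts, so p-values measure the spread between these libraries, which may be technical.

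The fly midgut renews itself from intestinal stem cells. A stem cell presents the ligand Delta to its daughter, and the receptor Notch in that daughter, now an enteroblast, is cleaved and acts with the DNA-binding protein Su(H) to turn on target genes such as those of the E(spl) complex. Strong Notch signalling leads the enteroblast towards an absorptive enterocyte, and weak signalling accompanies the enteroendocrine fate. Transcription factors including Escargot, Sox21a and Klumpfuss hold progenitors in their state or carry them through differentiation.

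Total counts ran from 26216430 to 66562756 per library. The tissue label of the controls names fat bodies and the design text a yolk driver, whereas the series title names intestines and the genotypes Mex-Gal4. In CPM (each count divided by the library's total and scaled to parts in 1e6), here of total counts, the 9 enterocyte markers summed to between 73990 and 147434 with 9G8-RNAi and between 50600 and 186626 in control libraries. The 7 fat body markers summed to 487.6, 244.7 and 114.0 CPM with 9G8-RNAi and to 500.2, 83.1 and 132.9 CPM in the controls, with 5 of 7 at 1 CPM or more in every library and the storage protein gene Lsp2 at or below 0.102 CPM. Control replicate A stood apart. Its 10 muscle markers summed to 6004 CPM against at most 528 elsewhere, and its 5 tracheal markers to 132 CPM against at most 4.67. Its 8 Malpighian tubule markers summed to 1313 CPM against at most 164. Of these 8, 5 were highest there, and NKCC alone gave 607 CPM. The 5 hindgut and proventriculus markers were all highest there, but their sum was 768 CPM against 216 to 574 CPM elsewhere. Among them the hindgut factor byn stood out, at 74.1 CPM against at most 1.39. The target x16 measured 6.37, 11.5 and 6.59 CPM scaled by TMM with 9G8-RNAi and 8.28, 7.14 and 20.03 CPM in the controls, so that these groups overlapped (edgeR adjusted p of 0.92). TMM scaling corrects library sizes for a few abundant genes and is used below unless total counts are named.

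All 10 progenitor genes were detected in all 6 libraries, at low levels. Their read counts ran from 10 to 952 per library with a median of 130. The smallest, 10 reads of Su(H) in 9G8-RNAi replicate A, has a 95% Poisson interval from 4.8 to 18.4, which covers counting error only. Summed over the 10 genes, CPM of total counts was 31.3, 25.1 and 58.0 with 9G8-RNAi and 76.2, 68.0 and 16.7 in the controls. The lowest and the highest sums were both in control libraries. In a bulk sample, fewer progenitor cells and less RNA per progenitor cell cannot be told apart. Control replicate A, with the highest sum in CPM of total counts, was the library with the muscle, tubule and tracheal markers. Scaled by TMM, the sums were 36.6, 29.7 and 49.7 CPM with 9G8-RNAi and 45.4, 61.3 and 26.2 CPM in the controls. On that scale control replicate B was highest. The part of muscle, tubule and tracheal tissue in the progenitor values was not tested.

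Levels of different genes were compared per length, as TMM-scaled CPM per kb of exon. The most abundant member was esg, at 3.69 on average over the 6 libraries, a level above that of 53.2% of the 9285 genes tested. It was followed by mira at 2.16, Sox21a at 1.44 and Sox100B at 1.15. Levels under 1 CPM per kb were found for klu (0.632), hdc (0.577), Dl (0.458), Su(H) (0.336), zfh2 (0.232) and N (0.217), the last of which exceeded 8.4% of tested genes. The receptor and ligand of the pathway were thus scarcer per length than the transcription factors esg and Sox21a. This did not hold for every transcription factor, as Su(H) and zfh2 lay between Dl and N. N and Dl also have more exon bases, 10150 and 5278, than esg and Sox21a, 2273 and 2335. The part of exon length in this order was not tested. Neighbours in this order were not cleanly separated. The range over libraries of each member overlapped that of the next one down, and the higher member was ahead in 6 of 6 libraries only for Sox100B over klu and for hdc over Dl. For zfh2 and N, klu and hdc, Dl and Su(H), Sox21a and Sox100B, and mira and Sox21a it was ahead in 4 of 6.

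None of the 10 genes passed the edgeR quasi-likelihood test at an adjusted p of 0.05 over all genes. The counts were 0 higher and 0 lower in 9G8-RNAi, with 0 at an unadjusted p under 0.05 and 0 called by DESeq2 or limma-voom. Over all genes, edgeR called 0.118%, DESeq2 1.12% and limma-voom 0.0215%. In edgeR 8 genes were higher (0.0862%) and 3 lower (0.0323%), and 4.53% of genes had an unadjusted p under 0.05. The log2 fold change (9G8-RNAi minus control) lay below 0 for 8 of the 10 members, with a median of -0.24, and below 0 for 55.7% of all tested genes, with a median of -0.07. Without control replicate A, the library with muscle, tubule and tracheal markers, 8 of the 10 were again below 0 and 0 were called. The median was then -0.39 for the members and -0.03 for all tested genes. Each member's estimate without that library is 0.62 for esg, -0.86 for Dl, 0.54 for Sox21a, -0.41 for Sox100B, -0.13 for klu, -0.73 for hdc, -0.07 for zfh2, -0.53 for Su(H), -0.52 for mira and -0.37 for N. Sox21a and klu thus lay on the other side of 0 without it. Other single libraries moved the tilt too. The median of the members was -0.06 without 9G8-RNAi replicate B, with 5 of 10 below 0 and an all-gene median of -0.04. It was -0.59 without 9G8-RNAi replicate D (9 below 0, all-gene median -0.12), -0.13 without control replicate B (7 below 0) and -0.35 without control replicate D (9 below 0). The edgeR count at an unadjusted p under 0.05 was 2 without control replicate D (Dl and hdc) and 1 without control replicate B (mira), with 0 called after adjustment in each. The all-gene share under 0.05 in those fits is not given here, so these counts have no background beside them.

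**Figure D1:**
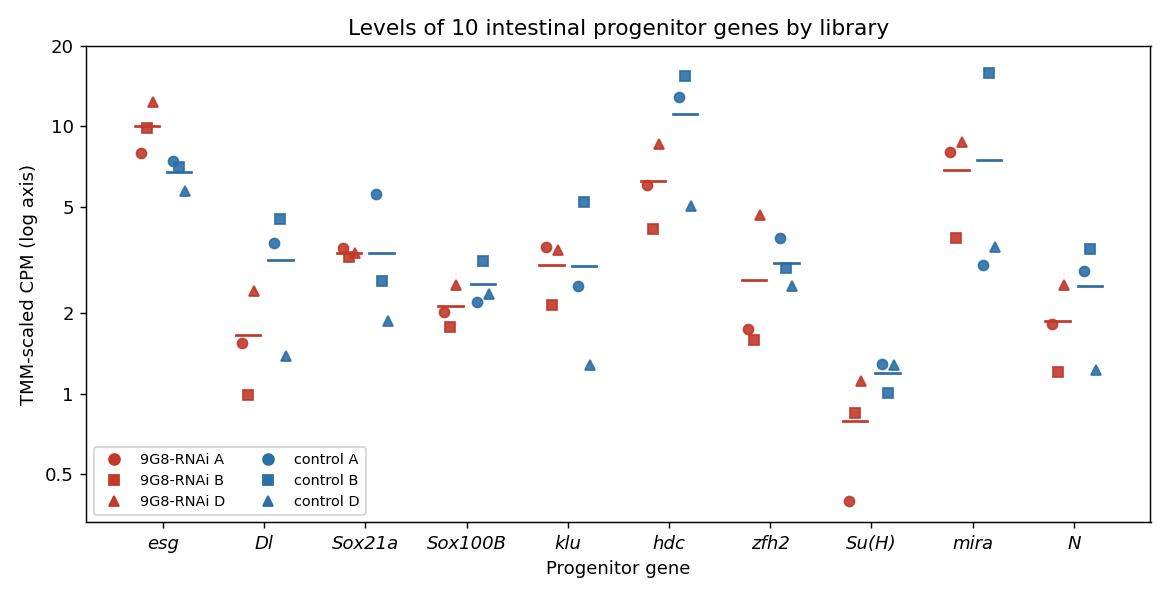
TMM-scaled CPM (vertical log axis) of the 10 progenitor genes in each library, with 9G8-RNAi in red, control in blue, a symbol for each replicate letter and a bar at each group's mean. The groups are separate for esg, whose 9G8-RNAi libraries lie at 7.96 CPM and above and whose control libraries lie at 7.42 CPM and below, and they overlap for the other 9 genes.

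The ligand came first in the pathway. Dl, whose protein Delta marks the stem cells, lies on chromosome arm 3R from 19302731 to 19326217 on the minus strand (FBgn0000463, BDGP6). It measured 1.55, 0.988 and 2.42 CPM with 9G8-RNAi and 3.65, 4.50 and 1.38 CPM in the controls. Control replicates A and B were above every 9G8-RNAi library, while control replicate D fell among them. The group levels were 1.65 ± 0.721 and 3.18 ± 1.61 CPM (SD, n = 3), and their log2 fold change of -0.94 ± 0.51 (SE) had an edgeR adjusted p of 0.92. This is 0.52 times the control level (95% interval 0.23 to 1.18).

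N, the receptor (FBgn0004647, chromosome X from 3134870 to 3172221, plus strand), stood at 1.83, 1.21 and 2.56 CPM with 9G8-RNAi and at 2.88, 3.48 and 1.23 CPM in the controls. The order of libraries resembled that of Dl, with control replicate B highest and 9G8-RNAi replicate B lowest. Its log2 fold change was -0.44 ± 0.47 (SE), or 0.735 times the control level (95% interval 0.349 to 1.55).

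Su(H), the DNA-binding partner of cleaved Notch (FBgn0004837, 2L from 15039488 to 15043334, plus strand), gave 0.398, 0.851 and 1.12 CPM with 9G8-RNAi and 1.29, 1.01 and 1.28 CPM in the controls. It was the member with the fewest reads, 264 in all. 9G8-RNAi replicate D lay between the control values, so the groups overlapped, and the log2 fold change was -0.57 ± 0.47 (SE).

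esg encodes Escargot, a zinc finger protein of the Snail family that marks stem cells and enteroblasts and holds back their differentiation. The gene (FBgn0001981, 2L from 15333866 to 15336138, plus strand) measured 7.96, 9.88 and 12.3 CPM with 9G8-RNAi and 7.42, 7.05 and 5.72 CPM in the controls. It was the single member whose groups did not overlap on this scale, where 8.59% of all tested genes did not overlap and 4.81% did so with 9G8-RNAi higher. The means were 10.03 ± 2.15 and 6.73 ± 0.891 CPM (SD, n = 3), and their log2 fold change of 0.57 ± 0.28 (SE) had an unadjusted p of 0.073 and an edgeR adjusted p of 0.92. The fold change was 1.49, with a 95% interval from 0.954 to 2.33. In CPM of total counts the values were 6.80, 8.37 and 14.3 with 9G8-RNAi and 12.5, 7.81 and 3.64 in the controls. On that scale, where 4.08% of tested genes did not overlap, the groups overlapped, as control replicate A exceeded 9G8-RNAi replicates A and B.

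The pair of Sox genes encode transcription factors with an HMG box. Sox21a, which is needed for enteroblasts to differentiate (FBgn0036411, 3L from 14103481 to 14108118, minus strand), was nearly level in 9G8-RNAi, at 3.50, 3.24 and 3.37 CPM, and spread from 5.60 to 2.64 and 1.87 CPM in the controls. Its means were the same, 3.37 ± 0.132 and 3.37 ± 1.97 CPM (SD, n = 3), and the 95% interval of the fold change ran from 0.511 to 1.93. Sox100B (FBgn0024288, 3R from 31065253 to 31083407, plus strand), of the SoxE group, varied least among the members, by 1.76-fold between its lowest and highest library. It measured 2.03, 1.78 and 2.56 CPM with 9G8-RNAi and 2.20, 3.13 and 2.37 CPM in the controls, with a log2 fold change of -0.27 ± 0.32 (SE).

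The enteroblast factors were klu and zfh2. Klumpfuss is a zinc finger protein that keeps enteroblasts from the enteroendocrine fate, and klu (FBgn0013469, 3L from 10981171 to 11009188, minus strand) stood at 3.54, 2.14 and 3.45 CPM with 9G8-RNAi and at 2.54, 5.20 and 1.28 CPM in the controls. Both the highest and the lowest values were in controls, and the fold change was 1.0 with a 95% interval from 0.45 to 2.23. The zinc finger and homeodomain gene zfh2 (FBgn0004607, chromosome 4 from 501810 to 540874, plus strand) gave 1.75, 1.59 and 4.65 CPM with 9G8-RNAi and 3.81, 2.96 and 2.52 CPM in the controls. In 9G8-RNAi, replicate D was thus well above the others, and the log2 fold change was -0.21 ± 0.46 (SE). Exons of Tdg on the other strand cover 18.7% of the exon bases of zfh2, and since the strand setting of the counting is not given, these counts are uncertain.

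Of the remaining members, hdc (headcase, listed as heca in the annotation used) encodes a protein of imaginal and adult progenitor cells. The gene (FBgn0010113, 3R from 30277932 to 30372382, plus strand) measured 6.05, 4.14 and 8.57 CPM with 9G8-RNAi and 12.9, 15.5 and 5.03 CPM in the controls. As with Dl, control replicates A and B were above every 9G8-RNAi library and control replicate D was not. Its log2 fold change was -0.83 ± 0.46 (SE), or 0.561 times the control level (95% interval 0.27 to 1.17), and its edgeR adjusted p was 0.92.

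mira encodes Miranda, an adaptor known from neuroblasts, where it carries fate determinants to the basal side of the dividing cell. It lies on 3R from 19931799 to 19935120 on the minus strand (FBgn0021776). Among the members it varied most between libraries, by 5.23-fold, with 7.998, 3.84 and 8.77 CPM with 9G8-RNAi and 3.04, 15.9 and 3.55 CPM in the controls. Control replicate B was far above the other 5 libraries and control replicate A was lowest. The log2 fold change was -0.13 ± 0.66 (SE), and without control replicate B it was 1.04 with an edgeR adjusted p of 0.98.

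**Figure D2:**
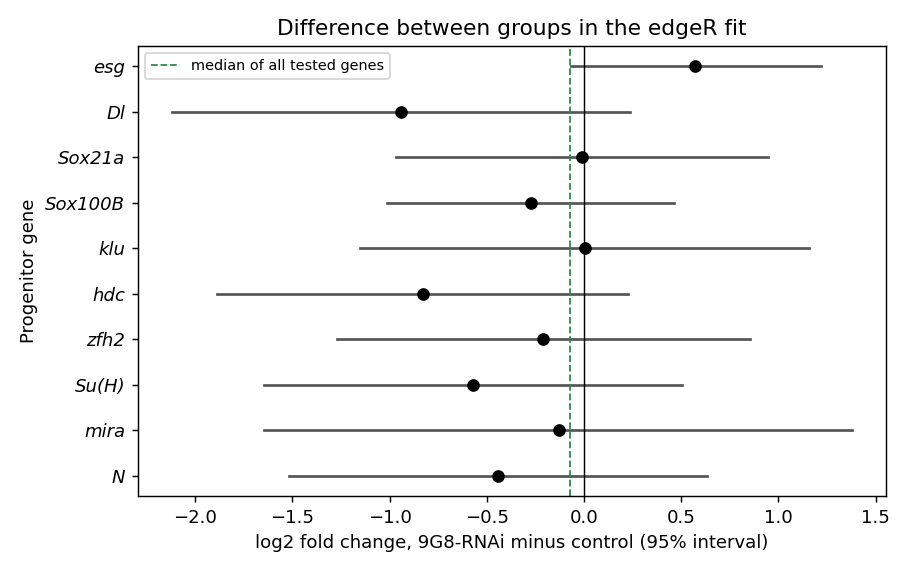
Log2 fold change (horizontal axis, 9G8-RNAi minus control) of the 10 progenitor genes in the edgeR fit, with points at the estimate, lines for the 95% interval and a dashed line at -0.07, the median of all tested genes. Each interval includes 0. The estimates run from -0.94 for Dl to 0.57 for esg.

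The same libraries recurred as highest or lowest. In TMM-scaled CPM, 6 of the 10 genes were highest in control replicate B and 5 were lowest in 9G8-RNAi replicate B, while 3 were lowest in control replicate D. In CPM of total counts, 7 were highest in control replicate A and 7 lowest in control replicate D. The TMM factors behind this difference were 0.854, 0.847 and 1.17 with 9G8-RNAi and 1.68, 1.11 and 0.635 in the controls.

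The libraries also differed in how many genes had no read: 5896, 5163 and 2079 with 9G8-RNAi and 3025, 2342 and 6091 in the controls. For Dl, hdc, zfh2 and N, the libraries with most such genes (9G8-RNAi replicates A and B and control replicate D) were the lowest 3 in TMM-scaled CPM. These are the members with the greatest exonic length, from 5278 bases for Dl to 15063 for hdc, while the other 6 have at most 4792 bases. Among all tested genes 15.1% had those libraries as their lowest 3. In CPM of total counts the pattern held for 7 of the 10 members and 49.5% of all tested genes. The part of this library difference in the group values of Dl and hdc was not tested.

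Ratios of read counts within a library do not depend on library scaling. They were taken for Dl to esg, a stem cell marker against a marker of stem cells and enteroblasts, for klu to esg, an enteroblast marker against the same, and for klu to Dl. The ratio of Dl to esg was 0.195, 0.10 and 0.197 with 9G8-RNAi and 0.492, 0.639 and 0.241 in the controls. All 9G8-RNAi libraries were below all control libraries, by 1.43 on the log2 scale (-2.66 ± 0.56 against -1.23 ± 0.72, SD, n = 3), with an exact two-sided permutation p of 0.1. That is the smallest p that 3 against 3 libraries allow, and it was 0.15 after Benjamini-Hochberg adjustment over the 3 ratios. As a background, 25.9% of the other tested genes also had a ratio to esg that was lower in all 9G8-RNAi than in all control libraries, so that a separation of this kind was common. The lowest control ratio, 0.241, was in control replicate D, which is among the libraries with most genes without a read. Dl has 5278 bases of exon and esg 2273. The part of that library difference in the ratios was not tested.

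The ratio of klu to Dl was 2.28, 2.17 and 1.43 with 9G8-RNAi and 0.696, 1.16 and 0.929 in the controls. It was higher in every 9G8-RNAi than in every control library, by 1.07 on the log2 scale (exact two-sided permutation p of 0.1, adjusted 0.15), and 8.36% of the other tested genes had a ratio to Dl that was separated in this direction. For klu to esg the values were 0.445, 0.217 and 0.282 with 9G8-RNAi and 0.343, 0.739 and 0.224 in the controls. These overlapped, with a difference of -0.36 on the log2 scale (exact two-sided permutation p of 0.6). Leaving out each library in turn, the difference ran from -1.83 to -1.11 for Dl to esg and from 0.88 to 1.28 for klu to Dl. Without control replicate A these differences were -1.32 and 0.88.

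**Figure D3:**
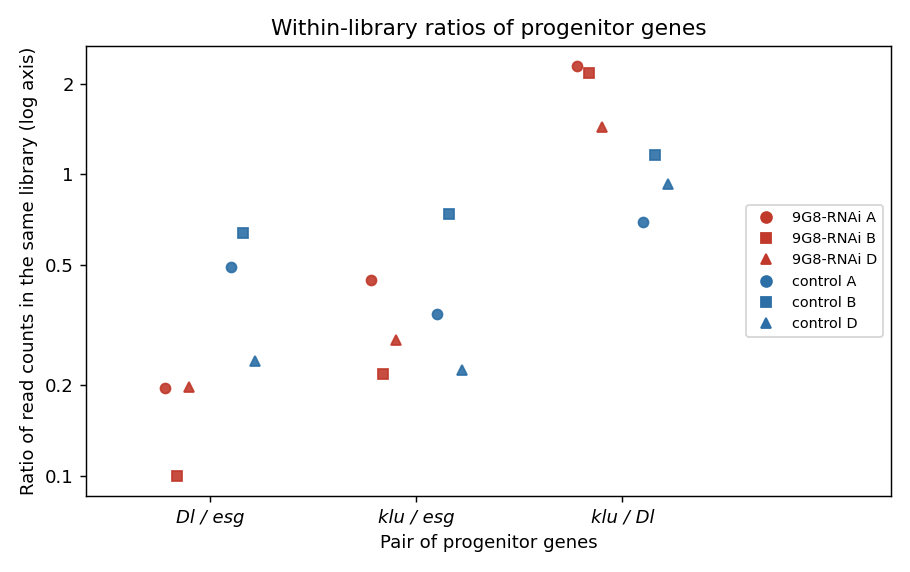
Ratio of read counts of 2 progenitor genes in the same library (vertical log axis) for 3 pairs, with 9G8-RNAi in red, control in blue and a symbol for each replicate letter. Dl to esg lies between 0.10 and 0.197 with 9G8-RNAi and between 0.241 and 0.639 in control, klu to Dl between 1.43 and 2.28 against 0.696 and 1.16, and klu to esg overlaps.

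The wider Notch pathway was described over 36 genes, Dl, N and Su(H) included, of which 27 were abundant enough to be tested. edgeR called 0 of them higher and 0 lower, with 0 at an unadjusted p under 0.05, and DESeq2 (1 at an unadjusted p under 0.05) and limma-voom called 0. Without control replicate D, 5 of the 29 then tested had an unadjusted edgeR p under 0.05 (Dl, Ser, mam, kuz and mib1). Without control replicate B 1 did (Ser), and 0 were called in either fit. The all-gene share under 0.05 in those fits is not given here. Of the 27 tested with all 6 libraries, 19 lay below 0, with a median log2 fold change of -0.26. This median ran from -0.45 without 9G8-RNAi replicate D to -0.17 without control replicate B. With all 6 libraries, the lowest edgeR p-values belonged to Ser, rumi, mam and Dl. Ser, the other Notch ligand, measured 0.0398, 0.302 and 0.296 CPM with 9G8-RNAi and 6.92, 0.399 and 0.0987 CPM in the controls, with a log2 fold change of -3.46 ± 1.52 (SE). Control replicate A, the library with muscle, tubule and tracheal markers, was the single library above 0.399 CPM. Control replicate A was likewise highest for mam, the co-activator of cleaved Notch, at 9.62 CPM against 2.61 to 5.87 elsewhere, and for rumi, which adds glucose to Notch, at 1.75 CPM against at most 0.646.

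The most abundant pathway genes in CPM were the ubiquitin ligases Su(dx) and Nedd4, which send Notch for degradation, the Notch antagonist numb and the protease Fur1. Su(dx) stood at 51.2 ± 19.6 CPM with 9G8-RNAi and 59.2 ± 22.5 CPM in control (SD, n = 3), and Nedd4 at 32.9 ± 6.50 and 39.8 ± 6.83 CPM. For numb the means were 26.9 ± 1.37 and 26.1 ± 10.6 CPM, and for Fur1 20.7 ± 3.66 and 28.3 ± 11.4 CPM. The groups overlapped for each of these 4.

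The E(spl) genes are direct targets of Notch with Su(H). Of the 11, only 4 were tested: E(spl)m3-HLH, E(spl)mbeta-HLH, E(spl)malpha-BFM and E(spl)m6-BFM. The other 7 together had between 2 and 41 reads per library. All 4 tested genes had a log2 fold change above 0, between 0.03 and 0.42, with a median of 0.16. Among all 9285 tested genes, 4109 lay above 0. Each of the 4 estimates was smaller than its SE. The largest, 0.42 ± 0.84 (SE), was that of E(spl)m6-BFM, which ran from 0.204 CPM in control replicate A to 2.14 CPM in 9G8-RNAi replicate D. E(spl)m3-HLH, a bHLH repressor (FBgn0002609, 3R from 26021823 to 26023127), was the most abundant and took between 37.3% and 71.2% of the E(spl) reads of a library. It measured 4.97, 17.4 and 7.77 CPM with 9G8-RNAi and 7.42, 5.47 and 12.1 CPM in the controls, with a log2 fold change of 0.27 ± 0.50 (SE) and an edgeR adjusted p of 0.93. E(spl)mbeta-HLH stood at 3.67 ± 0.597 and 3.56 ± 0.992 CPM and E(spl)malpha-BFM at 2.90 ± 0.489 and 2.78 ± 0.705 CPM with 9G8-RNAi and control (SD, n = 3).

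Genes of asymmetric division, with roles known mainly from neuroblasts, numbered 16, mira included, and 15 were tested. edgeR called 0 higher and 0 lower, with 1 at an unadjusted p under 0.05, and DESeq2 and limma-voom called 0. The median log2 fold change was -0.41, with 12 of 15 below 0. This median was -0.12 without control replicate A, the library with muscle, tubule and tracheal markers, and -0.20 when replicate B of either group was left out. It was -0.42 without 9G8-RNAi replicate A, -0.55 without 9G8-RNAi replicate D and -0.56 without control replicate D. Without control replicate D, 3 of the 16 genes then tested had an unadjusted edgeR p under 0.05 (baz, l(2)gl and dlg1). Without control replicate B the 1 such gene was mira. Without any single 9G8-RNAi library there were 0 such genes. The all-gene share under 0.05 in those fits is not given here. With all 6 libraries, the gene with the unadjusted edgeR p under 0.05 was l(2)gl, which encodes a cortical polarity protein. It measured 109, 101 and 112 CPM with 9G8-RNAi and 71.9, 29.2 and 64.2 CPM in the controls. All 9G8-RNAi libraries were above all control libraries, as for 4.81% of tested genes, with a log2 fold change of 0.96 ± 0.39 (SE), an edgeR unadjusted p of 0.039 and an adjusted p of 0.92. In CPM of total counts control replicate A stood at 121, above 9G8-RNAi replicates A and B at 93.0 and 85.8, so the groups overlapped on that scale.

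The mitotic spindle gene mud was lower in all 9G8-RNAi libraries, as were 3.78% of tested genes, at 0.300 ± 0.0466 against 0.510 ± 0.0898 CPM (SD, n = 3), with an edgeR adjusted p of 0.92 and 104 reads in all. In CPM of total counts its groups overlapped, since 9G8-RNAi replicate D at 0.391 was above control replicate D at 0.282. For dlg1, which acts with l(2)gl in cell polarity, control replicate A was highest at 35.2 CPM against 6.02 to 13.7 elsewhere. The spindle orientation gene pins measured 8.51 ± 2.87 and 11.3 ± 2.29 CPM, the polarity gene scrib 56.9 ± 17.6 and 78.6 ± 40.6 CPM, and the kinase gene aPKC 17.8 ± 2.47 and 19.1 ± 4.17 CPM.

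**Figure D4:**
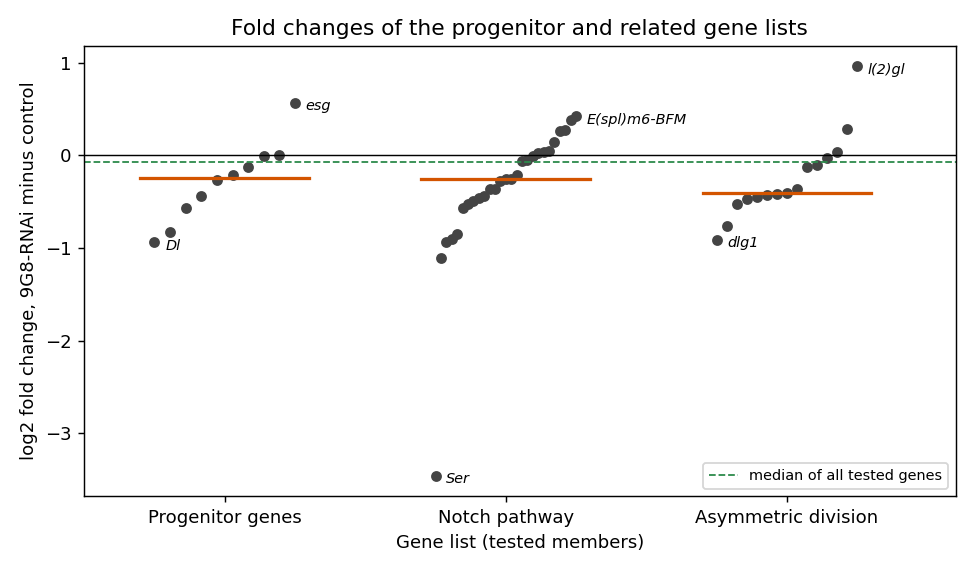
Log2 fold change (vertical axis, 9G8-RNAi minus control) of the tested progenitor genes, Notch pathway genes and asymmetric division genes, with a point for each gene, orange bars at the medians of -0.24, -0.26 and -0.41 and a dashed line at -0.07, the median of all tested genes. Ser is lowest, at -3.46, and l(2)gl is highest, at 0.96.

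Relatives of the members were compared per length. Of the Snail family, esg was by far the most abundant, at 3.69 CPM per kb, against 0.0607 for sna, 0.0291 for scrt and 0.00763 for wor. Among 8 Sox genes, Sox14 was the most abundant at 2.51 CPM per kb, followed by Sox21a and Sox100B. Sox102F stood at 0.258 and Sox21b at 0.0343. zfh2 stood at 0.232 CPM per kb and zfh1 at 0.0329, and klu at 0.632 and its zinc finger relative sr at 0.044.

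Profiles across the 6 libraries were compared as the root mean square difference of log2 CPM centred on each gene's mean, among genes with at least 5 CPM on average. Of 5489 such genes, hdc had the profile most like that of Dl, with a difference of 0.0863, against a median of 0.805 for all. The next were Dhc64C, a dynein heavy chain, at 0.137, and MED14, a Mediator subunit, at 0.146. Dhc64C measured 39.0, 31.7 and 66.6 CPM with 9G8-RNAi and 114, 118 and 35.4 CPM in the controls, and has 14597 bases of exon. N differed from Dl by 0.258. Nearest to esg among 5488 genes were CG5114 at 0.13, egr, the TNF ligand Eiger, at 0.156, and CG7900 at 0.159, against a median of 0.569. No member was as close to esg, the nearest being Sox21a at 0.464, and Dl was the most distant at 0.875.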

How the data were processed

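Members and lists were chosen with earlier results of these data known. The authors deposited whole-number read counts per gene and the summed exon length of each gene (per the file headers), 17411 genes per library. The submitters' processing notes list BDGP6, featureCounts from Subread 1.5.2, Trimmomatic 0.36 and STAR 2.5.2b. The sources used here do not give settings, strand or annotation release. Symbols came from Ensembl release 115. Dl and hdc were found through RefSeq synonyms (Delta and heca), and esg, which has an older identifier, by position. Genes were kept by filterByExpr, scaled by TMM and compared with the robust quasi-likelihood test of edgeR 4.0.16 in R 4.3.3, without a replicate block, with Benjamini-Hochberg adjustment over 9285 genes. Alternatives used DESeq2 1.42.0, limma 3.58.1, other scalings and filters, and leaving out each library. Joins, ratios and exact permutation tests used Python 3.11.15, with 0.5 added to counts in ratios. The fit was tested on simulated data. It called 0 of 65 genes with a simulated 2-fold change, 33 of 66 at 4-fold and 58 of 66 at 8-fold. Of 8850 genes simulated without a change it called 6. Simulated counts were drawn independently for each gene, so differences that many genes share within a library were left out. The numbers of calls may therefore not hold for the real libraries. All pairs of libraries differed by more than sampling noise (chi-square divided by its degrees of freedom 266.5 or more). Named genes of a list are the 4 with the lowest p and the 4 with the highest mean CPM, and for esg and Dl the 3 nearest profiles. The ovary marker vas was not matched. Haemocyte, neuron, ovary and male tract markers summed to at most 9.42, 23.2, 0.496 and 0.687 CPM of total counts, enteroendocrine markers to between 252 and 470 and hindgut and proventriculus markers to between 216 and 768. Promoter and protein sequences were not used here.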

Additional observations from a re-analysis of the deposited data

How the results depend on the processing

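The count of progenitor, Notch pathway and asymmetric division genes called was 0 under all 14 alternatives. Over all genes edgeR called 11, and 17 with total counts only, 50 with no low-count filter, 104 with DESeq2, 2 with limma-voom and 0 with replicate letter as a block, and between 0 and 11 without single libraries. Same-letter libraries did not deviate together (correlations over genes of -0.018, -0.35 and -0.46), so the letters were not taken to pair samples. With the block the ratio differences stayed at -1.43, -0.36 and 1.07 for Dl to esg, klu to esg and klu to Dl. This was fixed in advance, since each letter occurs once in each group, so it is no check of these values. The exact p with the block cannot go below 0.25. The difference of klu to esg ran from -0.74 to 0.11 without single libraries, with the value above 0 found without control replicate B.

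Members kept the sign of their log2 fold change under all alternatives for esg (0.30 to 0.72), Dl (-1.34 to -0.60), hdc (-1.17 to -0.51), Su(H) (-0.91 to -0.27), N (-0.76 to -0.14) and Sox100B (-0.47 to -0.11). The sign changed for Sox21a, at -0.0092 in the fit reported, which was 0.03 with RLE and 0.05 with upper-quartile scaling, 0.02 with no filter, 0.01 with over 1 CPM in 3 libraries, 0.02 in DESeq2, 0.07 in limma-voom, 0.15 with the block and between -0.21 and 0.54 without single libraries. For klu it was -0.29 with total counts only and between -0.28 and 0.67 without single libraries. For mira it was 0.16 in limma-voom, 0.31 with the block and between -0.52 and 1.04, and for zfh2 between -0.89 and 0.06, without single libraries. The cause was not tested. With total counts only, the median log2 fold change was -0.48 for the members and -0.33 for all tested genes.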
